A study of Rattus norvegicus with 3 samples.

Results

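Described here are the glucocorticoid receptor Nr3c1, the mineralocorticoid receptor Nr3c2 and 8 direct target genes of the activated receptor (Fkbp5, Tsc22d3, Sgk1, Zbtb16, Pdk4, Klf9, Errfi1 and Ddit4) in rat cerebellar cortex. A gene belongs here when the transcript accession printed on the array maps to its rat RefSeq symbol. These are 10 of the 38973 genes measured, read by 17 probes with 1 spot each. The genes were picked with measured values of the same arrays known, among them higher signals of glucocorticoid-responsive genes than in the control group. Their ratios to the control array are therefore a description, carry no test and support nothing.

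Cerebellar cortex was examined by microarray after a stroke in a cerebral hemisphere. The contralateral group was the left cerebellar cortex, and the ipsilateral group the right cerebellar cortex, of male Wistar rats aged 9 weeks, taken 2 days after transient occlusion of the right middle cerebral artery. The control group was the left cerebellar cortex of male Wistar rats aged 9 weeks, taken 2 days after a sham operation, in which the right carotid artery was exposed and not opened. Each array held RNA pooled from 4 rats, and the occluded rats had been selected by a neurological score.

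All groups went through surgery. Both occlusion arrays came from the same 4 rats, and both ratios share the control array, so they are not independent of each other. Right cortex after a sham operation was not analysed, so for the ipsilateral array side and occlusion cannot be told apart. With 1 array per group there is no replicate, and differences between rats cannot be told apart from differences between groups. The error given with a log2 ratio combines the errors the scanning software assigns to the spots on both arrays. Spots and probes of a gene are treated as independent, so genes with more of them tend to have smaller errors. It does not cover disagreement between the probes of a gene, the rats or the hybridisation.

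Glucocorticoids cross the cell membrane and bind receptors held in the cytoplasm by heat shock proteins and their partner proteins. The bound receptor moves to the nucleus, binds response elements in DNA, and raises the transcription of some genes while lowering that of many inflammatory genes. Nr3c2 binds the same hormones with higher affinity and is occupied at low hormone levels, whereas Nr3c1 is filled when levels are high, as under stress. In the cerebellum Nr3c1 is found in granule cells, Purkinje cells and glia.

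Each array was read in a single colour and carried 58717 spots that are not controls. A spot counts as well above background when the scanning software says so. That held for 42470 contralateral, 43028 ipsilateral and 43283 control spots. The processed signal had a 75th percentile of 2103 contralaterally, 1614 ipsilaterally and 2336 in the control. Signals below are scaled to a common 75th percentile of 1993.9 and are called scaled signals. They compare a probe between arrays, and do not compare the levels of different genes.

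The scaling matters for genes with ratios close to 0. A gene is counted as detected when at least 1 of its probes was well above background on each of the 3 arrays, so a gene that is not detected may still stand above background on some of them. Without scaling the median log2 ratio of the 23250 detected genes was lower by 0.15 contralaterally and by 0.53 ipsilaterally. Scaled to 8 spike-in probes, it was lower by 0.080 and by 0.25. Under the scale used here the median of these genes, from their probes above background, was 0.011 contralaterally and 0.031 ipsilaterally.

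Nr3c1, the receptor that mediates most effects of high glucocorticoid levels, had 3 probes, all well above background on the 3 arrays. The brightest had a scaled signal of 1304 contralaterally, 1203 ipsilaterally and 1387 in the control. The next had 366, 317 and 319.7 in the same order. The dimmest had 40.2, 34.6 and 44.3. On the brightest and the dimmest probe the control array was the highest, and on the other probe the contralateral array was. The mean log2 ratio over the probes was -0.012 contralaterally and -0.19 ipsilaterally, with scanner errors of 0.12 and 0.13, and neither is beyond 2 scanner errors under the scaling used here. Without scaling the ipsilateral ratio was -0.72, and with spike-in probes -0.44, both beyond 2 errors below 0. The distance from the median of all detected genes, which a factor per array cannot move, was -0.023 contralaterally and -0.22 ipsilaterally, and -0.0009 and -0.23 under quantile normalization.

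Nr3c2, the mineralocorticoid receptor, had 2 probes. The brighter had a scaled signal of 548 contralaterally, 524 ipsilaterally and 455.5 in the control. Its log2 ratios of 0.27 and 0.20 were within 2 scanner errors of 0 (error 0.20). Without scaling they were 0.11 and -0.33, and with spike-in probes 0.19 and -0.051. The dimmer probe had 7.27, 9.95 and 11.3, and was well above background on the control array only. On that probe the log2 ratios were -0.64 contralaterally and -0.19 ipsilaterally, with a scanner error of 0.58 on each side. The 2 probes had ratios of opposite sign on each side, all within 2 scanner errors of 0. Their mean, -0.19 contralaterally and 0.0066 ipsilaterally, thus rests in part on a probe that was not well above background on either occlusion array.

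The threshold for a ratio is 1, as the study's methods give it. Neither receptor gene had a log2 ratio beyond it. Between the sides, contralateral over ipsilateral, Nr3c1 was higher by 0.18 with an error of 0.13, and by 0.56 without scaling and 0.054 with a normexp background correction.

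**Figure D1:**
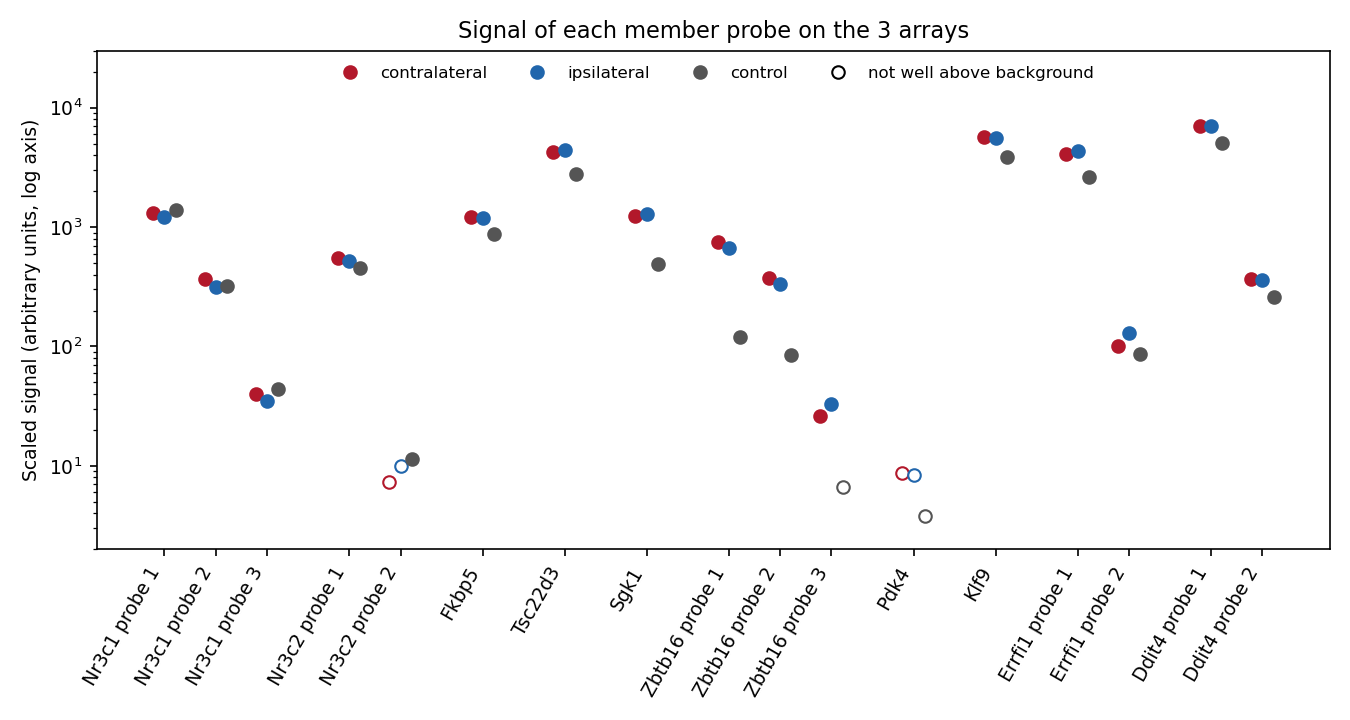
Scaled signal of each of the 17 probes on the contralateral, ipsilateral and control arrays, on a log axis in arbitrary units, with open circles where the spot was not well above background. The control point lies below both others for every probe of a target gene, though no Pdk4 spot was well above background. It lies above both for 2 of the 3 Nr3c1 probes.

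Promoter windows from RefSeq, on the rat build GRCr8, were available for 8 members as 13 windows of 300 bases, from 250 before to 50 after a transcript start, and not for Zbtb16 and Nr3c2. The glucocorticoid response element was searched as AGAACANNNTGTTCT, and its arm as AGAACA, which is part of the full element, both on both strands. No member window held either. The full element was in 0.0149% of the 33469 windows of all genes, and the arm in 20.7%. Response elements often lie far from the start, outside such windows, so this says only that these letters are not there. The median GC content was 66.0% over the member windows and 51.7% over all windows.

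TATAAA, the letters of a TATA box, was searched on the gene's strand and was in 4 of the 13 windows, of the genes Sgk1, Tsc22d3 and Errfi1, and in 8.80% of all windows. The match is a description of the letters and was not tied to the ratios. For each gene 1 window is printed, on the gene's strand with TATAAA in capitals, and the other Sgk1 window, at chr1:24807182-24807481, is not. They are shown because the promoter is where the receptor's targets are started. Printed are Sgk1 at chr1:24804782-24805081 on the minus strand, with TATAAA 33 bases before the start, Tsc22d3 at chrX:109009985-109010284 on the minus strand, 44 bases before, and Errfi1 at chr5:166606591-166606890 on the plus strand, 35 bases before.
Sgk1: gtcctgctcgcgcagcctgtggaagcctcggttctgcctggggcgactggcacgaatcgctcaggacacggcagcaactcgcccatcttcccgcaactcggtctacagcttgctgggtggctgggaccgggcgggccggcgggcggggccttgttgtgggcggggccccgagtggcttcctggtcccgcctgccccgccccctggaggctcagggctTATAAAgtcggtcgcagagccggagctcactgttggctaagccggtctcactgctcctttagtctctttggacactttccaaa
Tsc22d3: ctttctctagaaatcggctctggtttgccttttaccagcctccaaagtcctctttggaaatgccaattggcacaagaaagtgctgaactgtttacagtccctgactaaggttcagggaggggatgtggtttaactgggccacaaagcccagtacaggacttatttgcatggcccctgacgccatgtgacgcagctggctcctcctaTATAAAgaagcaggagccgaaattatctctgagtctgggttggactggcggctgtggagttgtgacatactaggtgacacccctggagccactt
Errfi1: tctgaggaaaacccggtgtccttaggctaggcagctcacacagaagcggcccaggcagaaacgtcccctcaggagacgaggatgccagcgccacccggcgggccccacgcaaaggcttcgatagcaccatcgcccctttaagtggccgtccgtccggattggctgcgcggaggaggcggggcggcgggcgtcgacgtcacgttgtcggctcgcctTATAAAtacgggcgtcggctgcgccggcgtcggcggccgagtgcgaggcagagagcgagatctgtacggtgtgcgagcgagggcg

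Among the targets, 3 of 8 had a log2 ratio above 1 contralaterally, where 4.70% of all genes did. Ipsilaterally the count was again 3 of 8, beside 13.4% of all genes. Without scaling it was 1 of 8 ipsilaterally, beside 6.72% of all genes. They are Zbtb16, Sgk1 and Pdk4 on each side, and Pdk4 was not well above background on any array, so its place in this count and in the median of 8 is not a measured difference. Of the 7 detected targets, 2 lay above 1 on each side. Among all detected genes this held for 1.49% contralaterally and 3.28% ipsilaterally. The count includes genes chosen for this direction, so nothing is read from it.

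All of these 7 targets had ratios above 0 on each side, beside 52.2% of detected genes contralaterally and 56.0% ipsilaterally. When the arrays were not scaled, 4 of 7 were above 0 ipsilaterally. The median of all detected genes was then -0.50 on that side, and all 7 lay above it. Under the scaling used here all 7 were also above 2 scanner errors, as were 7.50% of detected genes contralaterally and 12.3% ipsilaterally. Without scaling 4 of 7 were above 2 errors contralaterally, beside 4.01% of detected genes, and 2 of 7 ipsilaterally, beside 2.83%. With spike-in probes the counts were 6 and 3, beside 5.20% and 5.61%. The median log2 ratio of the 8 targets was 0.57 contralaterally and 0.65 ipsilaterally. Over the 7 it was 0.54 and 0.64.

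Zbtb16, a zinc finger transcription factor that is strongly induced by glucocorticoids in many tissues, had the highest ratios of the members. Its brightest probe had a scaled signal of 753 contralaterally, 674 ipsilaterally and 119 in the control. The next probe had 376, 330.5 and 84.1. Both occlusion arrays lay far above the control, which was the lowest on each probe. The brightest probe gave log2 ratios of 2.66 and 2.50, or 6.32-fold and 5.66-fold. The next gave 2.16 and 1.97, or 4.46-fold and 3.93-fold.

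The dimmest Zbtb16 probe had 26.2, 33.1 and 6.64, and its control spot was not well above background. It was at least 3.01-fold higher contralaterally and at least 3.80-fold higher ipsilaterally. Over the mean of all 3 probes the log2 ratio was 2.27 contralaterally and 2.26 ipsilaterally. Without the dimmest probe it was 2.41 and 2.24, with a scanner error of 0.15. Of the detected genes, 13 had a higher ratio contralaterally and 17 ipsilaterally.

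Sgk1 is a kinase that acts on ion channels and transporters and is a target of both receptors. The Sgk1 probe had a scaled signal of 1232 contralaterally, 1296 ipsilaterally and 486 in the control. The control was again the lowest, with the occlusion arrays 2.54-fold and 2.67-fold above it. The log2 ratios were 1.34 and 1.42, with an error of 0.20. Of the detected genes, 99.4% had a lower ratio contralaterally and 99.0% ipsilaterally. Sgk1 was the detected target closest above the threshold of 1. Without scaling its ipsilateral ratio was 0.88, below the threshold.

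Tsc22d3, also called Gilz, is a leucine zipper protein that carries part of the anti-inflammatory action of glucocorticoids. Its scaled signal was 4218 contralaterally, 4391 ipsilaterally and 2798 in the control. The control was lowest, by a log2 ratio of 0.59 contralaterally and 0.65 ipsilaterally, or 1.51-fold and 1.57-fold. The error was 0.20, and the ipsilateral ratio was 0.12 without scaling. Tsc22d3 was the target closest below the threshold of 1 on each side, and contralaterally 95.8% of the detected genes had a lower ratio.

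Klf9, a zinc finger transcription factor, had a scaled signal of 5635.5 contralaterally, 5592 ipsilaterally and 3869 in the control. The occlusion arrays were close to each other and 1.46-fold and 1.45-fold above the control. The log2 ratios were 0.54 and 0.53, with an error of 0.20.

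Fkbp5 encodes a partner protein of the receptor complex that lowers the receptor's affinity for hormone, so its induction forms a feedback loop. Its scaled signal was 1214 contralaterally, 1187 ipsilaterally and 882 in the control. The control was the lowest, by 1.38-fold and 1.35-fold. The log2 ratios were 0.46 and 0.43, with an error of 0.20. Among the detected genes, 93.8% had a lower ratio contralaterally and 87.8% ipsilaterally.

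Errfi1 encodes an inhibitor of the epidermal growth factor receptor family. Its brighter probe had a scaled signal of 4119.9 contralaterally, 4322 ipsilaterally and 2650.4 in the control, and its dimmer probe 100.3, 129.6 and 87.0. The control was lowest on both probes. The log2 ratios of the brighter probe were 0.64 and 0.71. Those of the dimmer probe were 0.21 and 0.58. Their mean was 0.42 contralaterally and 0.64 ipsilaterally, with an error of 0.15, and the latter was 0.11 without scaling.

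Ddit4, also called Redd1, restrains the growth kinase complex mTORC1. Its brighter probe had a scaled signal of 7060.0 contralaterally, 6984 ipsilaterally and 5036 in the control, and its dimmer probe 368, 359.8 and 261. The probes gave near equal ratios, with a mean of 0.49 contralaterally and 0.47 ipsilaterally and an error of 0.14.

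Pdk4 encodes a kinase that switches off pyruvate dehydrogenase. Its scaled signal was 8.63 contralaterally, 8.38 ipsilaterally and 3.78 in the control, and none of these spots was well above background. Signals that were well above background began at 9.12 contralaterally, 12.4 ipsilaterally and 8.72 in the control, so no fold is given for Pdk4.

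**Figure D2:**
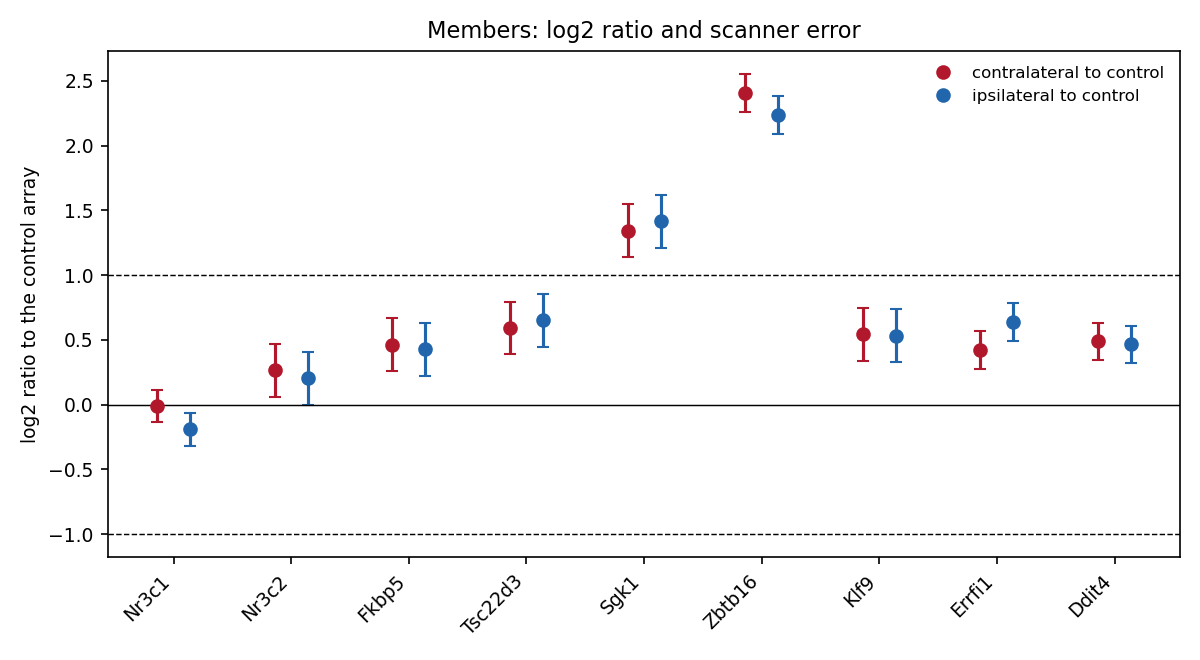
Log2 ratio to the control array of the 9 detected members, from the probes well above background on each array, with bars of 1 scanner error. Zbtb16 and Sgk1 lie above the dashed line at 1 on both sides, with ipsilateral Sgk1 at 0.88 when the arrays are not scaled, and the other members lie between -0.19 and 0.65.

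The sides were also set against each other, which leaves the control array out. The contralateral to ipsilateral log2 ratio of the 7 detected targets had a median of 0.011 and ran from -0.22 for Errfi1 to 0.17 for Zbtb16. None was beyond 2 scanner errors either way. Above 2 errors were 1.50% of the detected genes, which leaves out genes that were lower contralaterally by more than 2 errors. Without scaling 3 of 7 were above 2 errors, beside 45.1% of the detected genes, and with spike-in probes 1 of 7, beside 9.26%. None of the 7 was beyond 1, as were 1.84% of the detected genes, and 4 of the 7 were above 0, beside 46.5% of those genes. Without scaling 7 of 7 were above 0, the median was 0.39, and the median of all detected genes was then 0.37.

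**Figure D3:**
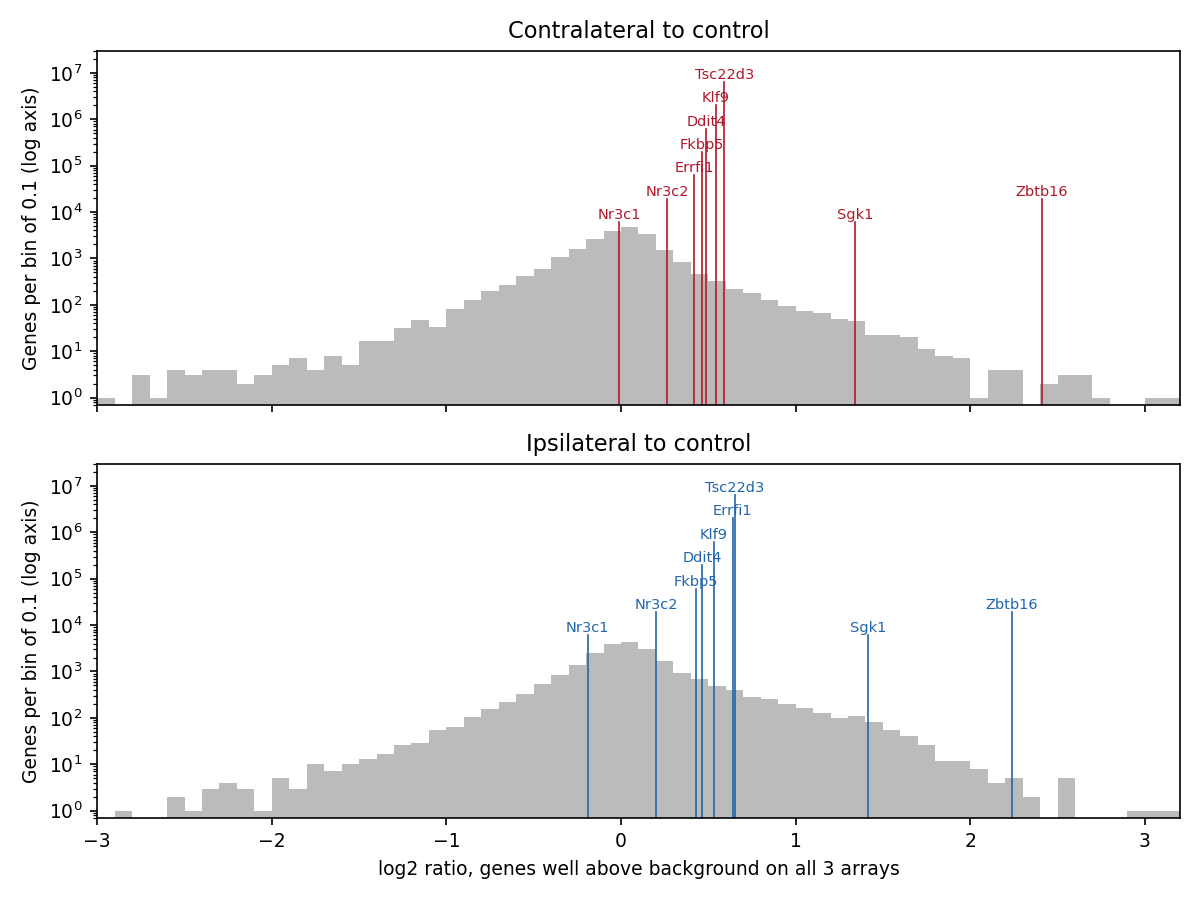
Distribution of the log2 ratios of the 23250 detected genes, in bins of 0.1 on a log axis of gene counts, with a line for each of 9 members. Zbtb16 lies in the sparse upper tail on both sides, and Nr3c1 lies near the middle contralaterally and lower ipsilaterally, at -0.19.

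The ipsilateral distribution was wider above its median than below it. The central 95% of the ratios ran from -0.71 to 0.78 contralaterally, and from -0.66 to 1.11 ipsilaterally. A ratio of the size of the targets' thus stood farther out contralaterally: 95.1% of the genes had a lower ratio than Klf9 there and 90.4% ipsilaterally. Ddit4 was above 94.3% and 88.9% of them.

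Scaling decides the sign of some ipsilateral target ratios. The processed signal of Fkbp5 before scaling was 1280.3 contralaterally, 960.4 ipsilaterally and 1033 in the control. Without scaling the ipsilateral log2 ratio was -0.11 for Fkbp5, -0.0026 for Klf9 and -0.068 for Ddit4. The distance of a gene from the median of all detected genes does not depend on a factor per array. The median of the 7 targets was 0.53 above that median contralaterally and 0.61 ipsilaterally. Quantile normalization, which is not a factor per array, gave 0.50 and 0.62.

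**Figure D4:**
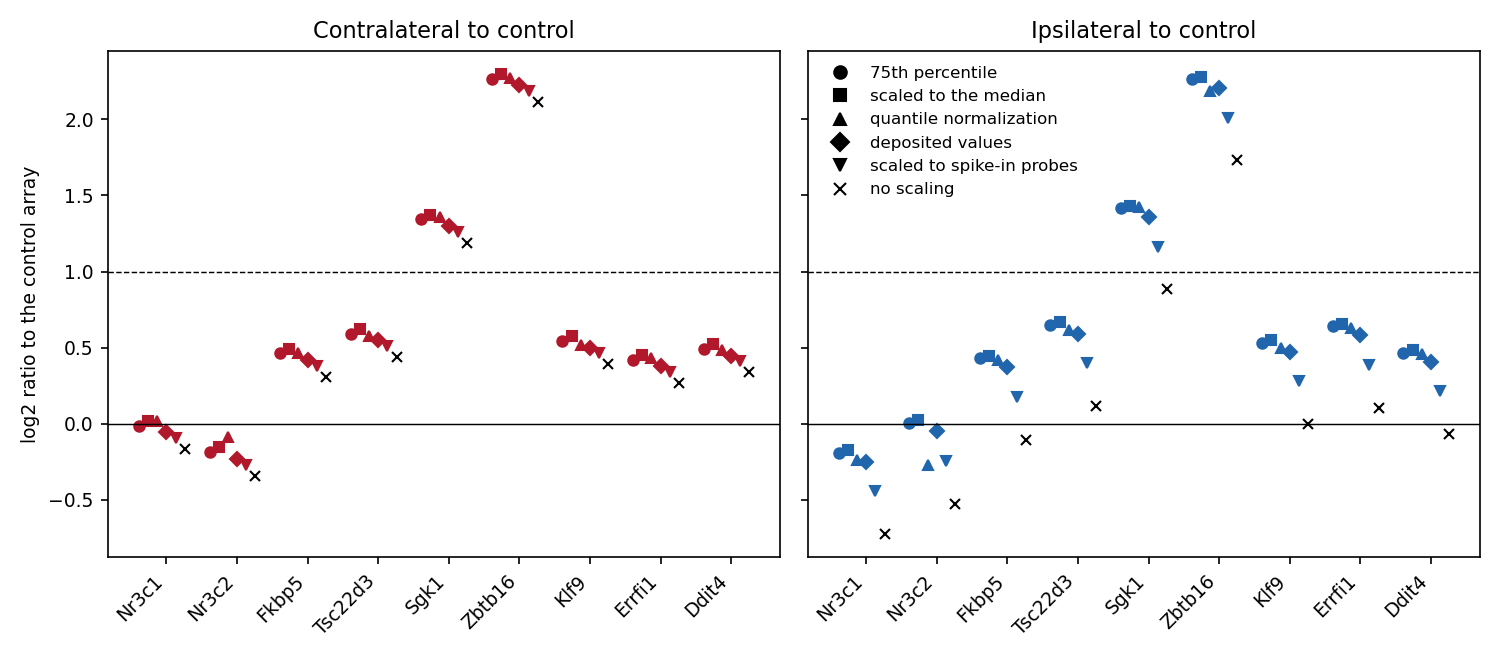
Log2 ratio to the control array of 9 members under 6 scalings of the arrays, averaged over all probes of a gene. Without scaling the ipsilateral ratios of Fkbp5, Klf9 and Ddit4 are below 0 (-0.11, -0.0026 and -0.068) and that of Sgk1 is 0.88, while Zbtb16 stays above 1.

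The genes most like Fkbp5 were taken from 11239 other genes with a symbol and all their probes well above background on each array, by the distance between their 2 log2 ratios to control and those of Fkbp5. They were Polr1e (0.46 contralaterally and 0.43 ipsilaterally), Qsox2 (0.46 and 0.43), Acsl3 (0.47 and 0.42), Igf1r (0.47 and 0.44) and Phlda3 (0.44 and 0.43). Their distances ran from 0.0025 to 0.018, well inside the scanner error, and 100 genes lay within 0.1 of Fkbp5.

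Other genes of the pathway were taken from 10 lists, in which no gene appears more than once. For each the detected genes are counted. Beside them, 1.49% of all detected genes were above 1 and 0.869% below -1 contralaterally, and 3.28% and 0.826% ipsilaterally. Without scaling 346 of the 23250 were below -1 contralaterally and 1229 ipsilaterally, and with spike-in probes 269 and 433.

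Chaperones hold the receptor ready for hormone. Of 14 listed, 13 were detected, with a median log2 ratio of 0.060 contralaterally and 0.047 ipsilaterally. None was above 1 or below -1. Hspa8, a constitutive heat shock protein, was highest in the list at 0.26 and 0.38 (error 0.10). Fkbp4, which competes with Fkbp5 for the receptor complex, was at -0.15 and -0.14 (error 0.20). Without scaling the medians were -0.092 and -0.49. None of the 13, Hspa8 included, was then above 0 ipsilaterally, where the median of all detected genes was -0.50.

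Hormone availability in a tissue depends on enzymes and transporters. Of the 6 listed, 4 were detected, none beyond 1, with medians of 0.23 and 0.18, the latter -0.36 without scaling. Hsd11b1, which regenerates active glucocorticoid inside cells, had a scaled signal of 3110.5 contralaterally, 3293 ipsilaterally and 2385 in the control. Its log2 ratios were 0.38 and 0.47 (error 0.20), the latter -0.068 without scaling. Abcb1a, which pumps steroids out at the blood-brain barrier, was at 0.35 and 0.24 (error 0.22 and 0.23), the latter -0.29 without scaling. Hsd11b2, which inactivates glucocorticoid, is named after its values were seen. It had 12.3 contralaterally, 14.1 ipsilaterally, where it was not well above background, and 50.9 in the control. The control was the highest, by a log2 ratio of -2.05 contralaterally and at least 3.62-fold ipsilaterally.

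Coregulators connect the receptor to chromatin. Of 14 listed, 11 were detected, with medians of 0.036 and -0.10, and none beyond 1. Without scaling the medians were -0.12 and -0.64, and Tgfb1i1 was below -1 ipsilaterally. Tgfb1i1 was the lowest contralaterally at -0.31, with -0.55 ipsilaterally. Ncoa2 was at -0.24 and 0.046 over its 3 probes, but its brightest probe was at 0.090 and 0.51.

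Further genes known to be induced by glucocorticoids were listed apart from the targets. Of 33, 28 were detected, with a median log2 ratio of 0.62 contralaterally and 0.69 ipsilaterally, and 0.47 and 0.16 without scaling. Above 1 were 7 of 28 contralaterally and 8 of 28 ipsilaterally, and none was below -1. Without scaling 5 and 2 were above 1, beside 1.03% and 0.658% of all detected genes, and 1 was below -1 on each side. Above 0 were 22 and 24 of the 28, beside 52.2% and 56.0% of all detected genes. Without scaling 19 and 16 were, where the median of all detected genes was -0.14 and -0.50. The list was written with earlier results of these arrays known, so nothing is read from the counts.

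Sult1a1, a sulfotransferase, was the highest of that list. Its scaled signal was 5498 contralaterally, 5422 ipsilaterally and 1189 in the control, 4.63-fold and 4.56-fold above it. Next was the metallothionein Mt2A, with log2 ratios of 1.95 and 1.98. Bcl6, a transcriptional repressor, had a scaled signal of 18352 contralaterally, 19330 ipsilaterally and 7341 in the control, 2.50-fold and 2.63-fold above it. These 3 genes had their lowest signal on the control array. The metallothionein Mt1 was at 1.27 and 1.32. At the low end, the cell cycle inhibitor Cdkn1c was at -0.86 and -0.53 (error 0.14). The vasoconstrictor Edn1 was at -0.76 contralaterally and 0.13 ipsilaterally (error 0.32 and 0.28). The list thus held genes with ratios of either sign.

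Genes that glucocorticoids repress, not all of them inflammatory, were 15, of which 8 were detected. Their medians were -0.15 and -0.17, and -0.30 and -0.70 without scaling. The chemokine Ccl5 was below -1 contralaterally, and no gene was beyond 1 ipsilaterally. Without scaling, and with spike-in probes, Ccl5 and Cxcl10 were below -1 ipsilaterally. The scaled signal of Ccl5 was 72.8 contralaterally, 103.9 ipsilaterally and 198 in the control. The control was the highest, with log2 ratios of -1.44 and -0.93 (error 0.15). The chemokine Cxcl10 was at -0.67 and -0.76. The cytokine Il1b was at -0.16 contralaterally and 0.89 ipsilaterally (error 0.28 and 0.27).

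The lists next to single targets had medians near 0. Sodium transport genes downstream of Sgk1 and aldosterone had 7 of 10 detected and medians of 0.14 and 0.096. Regulators of mTORC1 around Ddit4 had 11 of 12 and medians of -0.027 and -0.0025. Neither list held a gene beyond 1. The pyruvate dehydrogenase complex with its phosphatases, the substrate of Pdk4, had 6 of 7 and medians of 0.019 and 0.045. ERBB receptors and ligands around Errfi1 had 8 of 9 and medians of -0.026 and 0.027. No gene of these lists was beyond 1 either. Each of the 4 pairs of medians was below 0 on both sides without scaling.

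In these lists Eif4ebp1, a substrate of mTORC1 that restrains translation, had a scaled signal of 771 contralaterally, 831 ipsilaterally and 544 in the control. The control was lowest, by log2 ratios of 0.50 and 0.61 (error 0.065). Without scaling ipsilateral ratios were lower by 0.53, and the median of all detected genes was then -0.50. The size of the second ratio thus depends on the scaling, whereas its distance from that median does not depend on a factor per array. Sesn3, an mTORC1 inhibitor, was at -0.17 and -0.41. The receptor Erbb4 was at -0.36 and -0.40 (error 0.24 and 0.26).

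Relatives of the members in their own gene families had 17 of 20 detected and medians of -0.0054 and -0.023. None was beyond 1, and 1 of them was below -1 on each side without scaling. Sgk2, a relative of Sgk1, was lower than the control at -0.87 and -0.66 (error 0.21 and 0.22), where Sgk1 itself was higher. Tsc22d4 was at 0.33 and 0.23, and Klf13 at -0.19 and -0.081. Pdk3 was at 0.43 and 0.12, and Pdk2 at 0.14 and 0.16. The relatives' median was -0.16 contralaterally and -0.56 ipsilaterally without scaling.

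**Figure D5:**
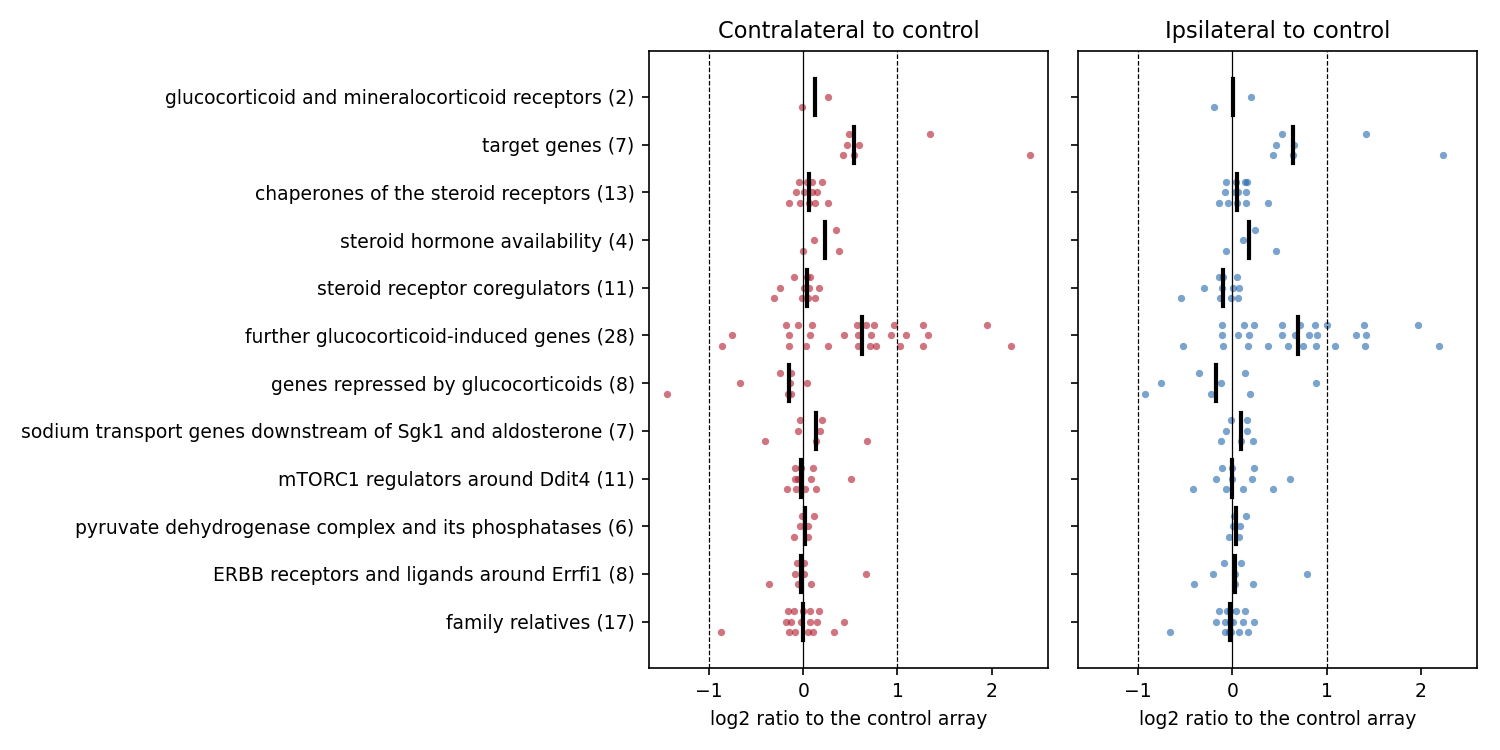
Log2 ratio to the control array of each detected gene, by list, with the number of genes in brackets, a bar at the median and dashed lines at 1 and -1. The medians of the targets and of the further induced genes are 0.54 and 0.62 contralaterally and 0.64 and 0.69 ipsilaterally (0.11 and 0.16 ipsilaterally without scaling), and those of the other lists shown lie between -0.17 and 0.23.

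Marker genes of cell types were read because the arrays hold whole tissue. In bulk tissue fewer cells of a type and less RNA per cell cannot be told apart. Of the markers of the main neurons of cerebellar cortex, 7 of 7 for granule cells and 7 of 7 for Purkinje cells were detected, and so were markers of other cell types.

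A sum of signals gives bright probes more weight and does not rank the arrays by cells. The summed scaled signal of the granule cell markers was 72465 contralaterally, 72706 ipsilaterally and 76090.5 in the control, with Cbln1 the brightest. For the Purkinje cell markers it was 215829, 214768 and 195771, with Itpr1 the brightest. The 7 of 7 markers of astrocytes and Bergmann glia summed to 76250.1, 76817 and 84403, led by Aqp4. Without Aqp4 they summed to 49634, 48237 and 45377, so that the array with the lowest sum depends on this probe. The 8 of 8 of endothelial cells summed to 4682, 4894 and 5460.0, led by Cldn5. The median log2 ratio was -0.098 contralaterally and -0.081 ipsilaterally for granule cells, 0.14 and 0.090 for Purkinje cells, 0.0003 and -0.073 for astrocytes and -0.22 and -0.12 for endothelial cells. Without scaling the Purkinje cell medians were -0.0080 and -0.44, and those of the other lists were below 0 as well.

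Microglia markers, 7 of 7, summed to 7349.6 contralaterally, 9093 ipsilaterally and 5796 in the control, led by C1qa. Leptomeninges markers, 7 of 7, summed to 7302, 9858.5 and 12795, led by Col1a2. Forebrain neuron markers, 3 of 6, summed to 1420.6, 1362 and 1259, led by Neurod6, and to 413.6, 274.5 and 213.1 without it. Of the microglia markers 4 of 7 were above the control contralaterally and 5 of 7 ipsilaterally, and 4 and 3 without scaling. Of the leptomeninges markers none was contralaterally and 1 ipsilaterally. Choroid plexus markers, 7 of 9, summed to 10805, 77023 and 34164, led by Ttr, with Kl and Prlr not detected. Blood cell markers, 2 of 6, summed to 1132, 1040.4 and 2062, led by Hba-a1 and 40.5, 55.4 and 47.6 without it, with Hbb, Alas2, Slc4a1 and Cd3e not detected. Without Ttr the choroid plexus sums were 895, 1694 and 1203. The median log2 ratio was 0.21 contralaterally and 0.083 ipsilaterally for microglia, -0.85 and -0.37 for leptomeninges and -0.675 and 0.66 for choroid plexus. For forebrain neurons it was 0.58 and 0.056, and for blood cells -0.56 and -0.41. Without scaling the ipsilateral medians were -0.45 for microglia, 0.13 for choroid plexus and -0.48 for forebrain neurons. The part of these cells in the ratios of the receptors and targets was not tested.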

How the data were processed

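The authors deposited the Agilent Feature Extraction 12.1.0.3 output, with intensity in arbitrary units per spot. The deposited series values are the processed signal times 1 factor per array (1.12, 1.45 and 1.04 for contralateral, ipsilateral and control), and the methods do not say whether this is the stated normalization. Here the log2 processed signal was shifted to a common 75th percentile, 759 spots marked as outliers were left out, and spots were averaged to probes and probes to genes. Of 39957 accessions, 17616 matched 1 symbol in RefSeq.

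Members and lists were chosen with earlier results of these data known. Named genes are the members, in each list up to 4 with the highest and 2 with the lowest contralateral ratio among genes with all probes well above background on each array, all such family relatives, the top marker of each list, and the 5 nearest to Fkbp5. Results for some listed genes are not reported. There were 10 alternatives. The code was tested on simulated data. Python 3.11.15, numpy 2.4.6, pandas 2.3.3, matplotlib 3.10.9, R 4.3.3 and limma 3.58.1 (normexp, on median signals) were used.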

Additional observations from a re-analysis of the deposited data

Results flagged for a closer look

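Under the scaling used here these genes, among the members and the genes named by rule, had log2 ratios to control of opposite sign contralaterally and ipsilaterally, each by more than its scanner error, and this difference was not tested. Among the choroid plexus markers, the contralateral minus ipsilateral log2 ratio was -2.93 for Ttr, a carrier of thyroid hormone and retinol. It was -2.89 for Sostdc1, -1.21 for the water channel Aqp1 and -0.89 for the potassium channel Kcnj13. Each was lower than the control contralaterally and higher ipsilaterally, but Kcnj13 was at -0.32 ipsilaterally without scaling and at -0.043 with spike-in probes. The kinase Wnk4, in the list of sodium transport genes, differed by -0.63, and its ipsilateral ratio of 0.22 was -0.31 without scaling and -0.031 with spike-in probes. Its brighter probe was at -0.28 contralaterally and -0.041 ipsilaterally, so the opposite signs rest on its dimmer probe. Nrgn, a forebrain neuron marker, differed by 2.04, with a scaled signal of 163 contralaterally, 39.7 ipsilaterally and 45.8 in the control. No member met both conditions.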

How the results depend on the processing

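Scaling moved the summary values of the targets. Without scaling the ipsilateral median was 0.11 and the contralateral to ipsilateral median 0.39, and 1 target, Zbtb16, was above 1 ipsilaterally instead of 3. Scaled to spike-in probes, the ipsilateral median was 0.39. Under these scalings the median of detected genes shifted by -0.53 and -0.25 ipsilaterally. Of 297 values of members under alternatives, 244 moved by less than their scanner error and 53 by more. For other named genes these counts were 3193 and 617 of 3810. The sign of the ratio to control differed for Nr3c1 under 4 of 10 alternatives contralaterally and 1 ipsilaterally, and for the mean of both Nr3c2 probes under 4 and 4. For the brighter Nr3c2 probe alone it differed ipsilaterally without scaling and with spike-in probes. For Fkbp5, Klf9 and Ddit4 it differed ipsilaterally without scaling.

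Of detected genes beyond 1, those above 1 made up 63.1% contralaterally and 79.9% ipsilaterally. Without scaling they made up 40.9% and 11.1%, with spike-in probes 51.5% and 48.5%, and with quantile normalization 67.8% and 64.9%. Between the sides the share was 12.2%, and 60.1%, 28.2% and 40.7% under these.

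Low signal limits the dim probes. With 50 added to the signal Zbtb16 was 1.45 contralaterally and 1.39 ipsilaterally. With probes well above background only, Pdk4 has no value.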
